A study of Mustela putorius furo and Mus musculus with 4 samples.

Results

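A set of 6 genes of ion transport across the astrocyte membrane is described here in cultured ferret and mouse astrocytes: the sodium pump beta subunit genes Atp1b1, Atp1b2 and Atp1b3, the cotransporter genes Slc12a2 and Slc4a4, and the sodium-calcium exchanger gene Slc8a1. They were chosen by symbol, matched without regard to case, and all 6 were found with a single value per library among the 13373 symbols present in both species. The 4 libraries were 2 of ferret astrocytes, from the cerebral cortex of postnatal day 1 ferrets (Mustela putorius furo), and 2 of mouse astrocytes, from the cerebral cortex of ICR mice of postnatal day 1 to 3. Both groups were untreated primary cultures, grown as mixed glia in 10% serum for 14 days, shaken to remove loose cells, replated in serum, and kept in serum-free medium with heparin-binding EGF-like growth factor for the last 4 days before RNA was taken. As the study describes its cultures, a ferret pup filled several flasks, whereas several mouse pups were pooled in a flask. Neither the labels nor the RNA-seq methods say whether the 2 libraries of a species came from separate cultures, so the p-values measure only the spread between these libraries, which may be technical. Species, genome annotation and culture cannot be told apart in this design.

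The sodium pump (Na,K-ATPase) moves sodium out of the cell and potassium in, at the cost of ATP. Its catalytic alpha subunit works only when paired with a glycosylated beta subunit, which is needed for folding and delivery of the pump to the plasma membrane and tunes its affinity for potassium. In the brain, the beta 2 isoform is known as that of astrocytes, where the pump takes up potassium released by neurons and sets the sodium gradient. That gradient drives the secondary transporters: NKCC1, encoded by Slc12a2, carries sodium, potassium and chloride inward together, NBCe1, encoded by Slc4a4, couples sodium to bicarbonate and sets pH, and NCX1, encoded by Slc8a1, exchanges sodium for calcium.

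The 3 beta subunits are products of separate genes. The starts of the mouse coding sequences are shown because the leading beta message differed between the species. Each line gives the first 90 coding bases, 5′ to 3′, with the start codon in capitals, from the GENCODE M21 transcripts of GRCm38.
Atp1b1: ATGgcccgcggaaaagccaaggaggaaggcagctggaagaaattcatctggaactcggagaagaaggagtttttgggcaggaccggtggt
Atp1b2: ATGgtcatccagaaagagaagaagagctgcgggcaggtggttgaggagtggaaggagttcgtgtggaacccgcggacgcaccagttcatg
Atp1b3: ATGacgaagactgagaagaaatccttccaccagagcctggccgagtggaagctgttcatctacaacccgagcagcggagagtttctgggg
The coding sequences were 915 bases long for Atp1b1, 873 for Atp1b2 and 837 for Atp1b3. In global alignments of the whole coding sequence, 54.7% of the aligned columns were identical between Atp1b1 and Atp1b2, 49.9% between Atp1b1 and Atp1b3, and 55.2% between Atp1b2 and Atp1b3. On GRCm38, mouse Atp1b1 lies at chr1:164437109-164458355, Atp1b2 at chr11:69599736-69605942 and Atp1b3 at chr9:96332655-96364442, all on the minus strand. Slc4a4 lies at chr5:88886818-89239653 on the plus strand, and Slc8a1 at chr17:81373105-81738377 on the minus strand. Each value below covers all annotated exons of a gene. Within its bounds, mouse Atp1b1 shares positions with Nme7 on the other strand, which stood at 15.8 and 15.98 FPKM in the 2 mouse libraries. The libraries were stranded, but the strand setting of the quantification is not given in the sources used here.

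The beta subunit genes differed between the species in opposite directions. Atp1b2 was the second lowest of the 6 genes in ferret astrocytes and the highest in mouse astrocytes, Atp1b3 was higher in ferret astrocytes, and Atp1b1 was lower. Levels are given as FPKM, fragments per kilobase of exon scaled to library size, and differences as ferret minus mouse on the log2(FPKM + 1) scale, each with its standard error (SE). The 10204 shared genes whose mean reached 1 FPKM in ferret or in mouse astrocytes were tested together with limma. Calls required both a Benjamini-Hochberg adjusted p under 0.05 and a log2 difference beyond 1 in either direction. By this rule 43.2% of the genes tested were called, 13.1% as higher and 30.1% as lower in ferret astrocytes, and the libraries of the 2 species did not overlap for 94.1% of them. The share called was 46.4% with FPKM rescaled to a sum of 1000000, 40.9% with FPKM brought to the average sum of the libraries and 40.8% after quantile normalization. The split moved as well, from 1336 genes higher and 3069 lower as deposited to 2197 and 2536, 1954 and 2215, and 2080 and 2082 under these 3 scalings. The sum of 1000000 also enlarges all FPKM, so the added 1 weighs less there, which changes differences of low genes. Of the 6 genes, 1 was called higher and 5 were called lower, and none of the 6 had overlapping species. Slc8a1, among the lower ones, passed the minimum of 1 FPKM through the mouse libraries alone, so its direction was fixed by the filter. Calls are thus common in these data, and the sizes and the order of the genes carry more than the calls.

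Atp1b2, whose product is the beta 2 subunit and is also known as the adhesion molecule on glia, had 6.03 and 5.43 FPKM in ferret and 445 and 480 FPKM in mouse astrocytes. The 2 ferret libraries were low and the 2 mouse libraries high, with no overlap, and the mean was 80.7-fold lower in ferret astrocytes. The log2 difference was -6.11 (SE 0.068, limma adjusted p = 5.85e-12). Of the 10204 genes tested, 24 (0.235%), Atp1b2 included, had an absolute log2 difference at least this large. Ranked among the 13373 shared symbols of its own library, Atp1b2 stood at percentiles 55.2 and 52.4 in ferret and at 99.6 and 99.6 in mouse astrocytes, a measure that does not depend on scaling between libraries.

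Atp1b3, which encodes the widely expressed beta 3 subunit, had 180.1 and 189 FPKM in ferret and 67.9 and 67.3 FPKM in mouse astrocytes. Both ferret libraries stood above both mouse libraries, and the mean was 2.73-fold higher. Its log2 difference was 1.44 (SE 0.057, limma adjusted p = 6.1e-09). Atp1b1, which encodes the beta 1 subunit found in most tissues, had 98.2 and 90.6 FPKM in ferret and 244.5 and 254 FPKM in mouse astrocytes. Here the ferret libraries were the lower ones, with a mean 2.64-fold lower. Its log2 difference was -1.39 (SE 0.063, limma adjusted p = 1.42e-08). The call of Atp1b1 did not hold after quantile normalization of the 4 libraries, where the log2 difference was -0.99, just under the limit of 1.

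**Figure D1:**
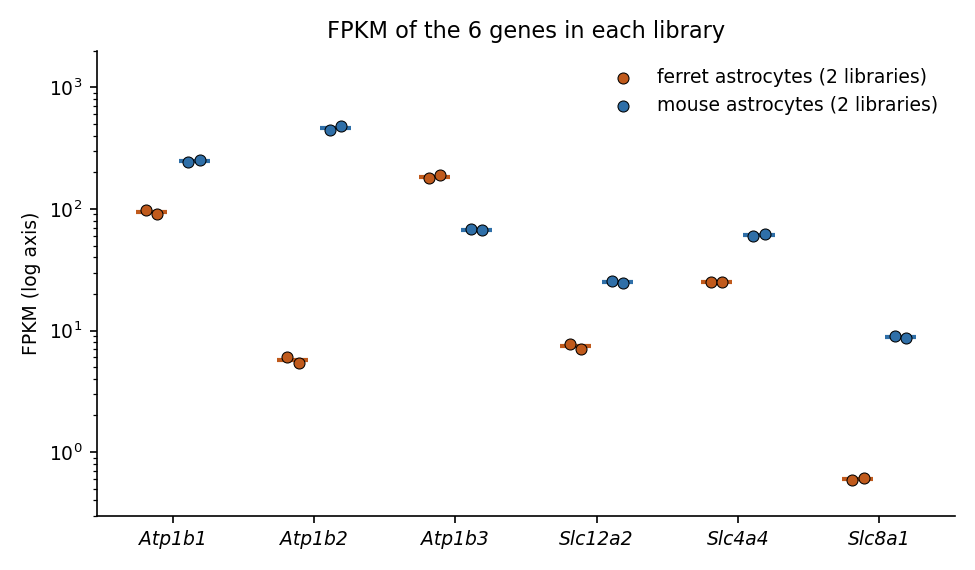
FPKM of the 6 genes, on a log axis, in each of the 2 ferret libraries (orange) and 2 mouse libraries (blue), with a bar at the mean of each species. The largest gap between species is that of Atp1b2, with 6.03 and 5.43 FPKM in ferret and 445 and 480 FPKM in mouse astrocytes, and Atp1b3 is the gene with the ferret points above the mouse points.

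Shares of the summed beta FPKM show isoform use within a library and do not depend on scaling between libraries. The 3 genes summed to 284 and 285 FPKM in ferret and to 757 and 801 FPKM in mouse astrocytes. Atp1b3 made up 63.3% and 66.3% of that sum in ferret and 8.96% and 8.40% in mouse astrocytes. Atp1b2 made up 2.12% and 1.90% in ferret and 58.8% and 59.9% in mouse astrocytes. Ferret astrocytes thus had Atp1b3 as the leading beta message and mouse astrocytes had Atp1b2. The share of Atp1b1 lay close together in the 2 species, at 34.5% and 31.8% in ferret and at 32.3% and 31.7% in mouse astrocytes.

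The mean share of Atp1b2 was 57.3 percentage points apart between the species (2.01% ± 0.15 in ferret and 59.3% ± 0.80 in mouse, SD, n = 2 each), and that of Atp1b3 was 56.2 points apart (64.8% ± 2.1 and 8.68% ± 0.39, SD, n = 2 each). Both gaps were many times the spread between duplicates, with a p of 0.333 by the two-sided exact permutation test, which is the smallest that 2 libraries against 2 can give. For Atp1b1 the means were 33.2% ± 2.0 and 32.0% ± 0.41 (SD, n = 2 each), a gap of 1.16 points that was within the spread of the ferret duplicates (exact permutation p = 0.667) and became -0.23 without ferret replicate 1. The ratio of Atp1b2 to Atp1b1 was 0.061 and 0.060 in ferret and 1.82 and 1.89 in mouse astrocytes. The ratio of Atp1b3 to Atp1b1 was 1.83 and 2.09 in ferret and 0.28 and 0.27 in mouse astrocytes. The ratio of Atp1b2 to Atp1b3 differed most of the 4 ratios compared, by -7.79 on the log2 scale, with 0.033 and 0.029 in ferret and 6.56 and 7.13 in mouse astrocytes. Each of these 3 ratios had an exact permutation p of 0.333, the smallest possible.

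**Figure D2:**
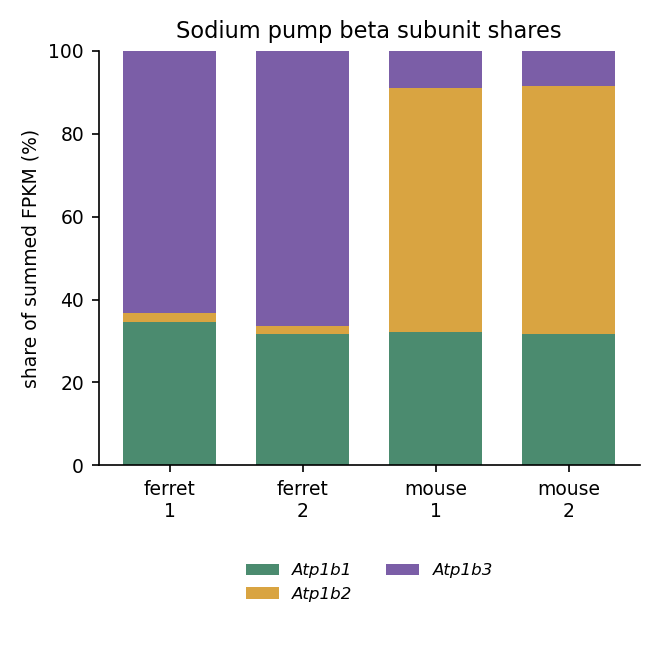
Share of each beta subunit gene in the summed FPKM of Atp1b1, Atp1b2 and Atp1b3, in percent, for each of the 4 libraries. Atp1b3 fills 63.3% and 66.3% of the ferret bars and Atp1b2 fills 58.8% and 59.9% of the mouse bars, over an Atp1b1 share between 31.7% and 34.5% in the 4 libraries.

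The cotransporters and the exchanger were lower in ferret astrocytes. Slc12a2, the gene of NKCC1, which loads cells with chloride, had 7.74 and 7.09 FPKM in ferret and 25.7 and 24.7 FPKM in mouse astrocytes. Its mean was 3.39-fold lower in ferret astrocytes, a log2 difference of -1.64 (SE 0.069, limma adjusted p = 9.09e-09). Slc4a4, the gene of NBCe1, had 25.2 and 25.2 FPKM in ferret and 60.5 and 61.7 FPKM in mouse astrocytes. The ferret libraries were again both below the mouse libraries, by 2.42-fold in the mean, and the duplicates were close together. Its log2 difference was -1.24 (SE 0.057, limma adjusted p = 1.58e-08), and fell in size to -0.88 to -0.86 under the 3 other scalings of the libraries, at which it is not called. The ratio of Slc4a4 to Slc12a2 was 3.25 and 3.56 in ferret and 2.36 and 2.50 in mouse astrocytes, a difference of 0.49 on the log2 scale (exact permutation p = 0.333, the smallest possible).

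Slc8a1, the gene of NCX1, had 0.59 and 0.61 FPKM in ferret and 9.03 and 8.62 FPKM in mouse astrocytes. It was the lowest of the 6 genes in each of the 4 libraries, and its mean was 14.8-fold lower in ferret astrocytes. The log2 difference was -2.62 (SE 0.075, limma adjusted p = 6.88e-10), and -3.68 with a pseudocount of 0.1, since the pseudocount of 1 compresses differences of low genes. Slc8a1 passed the minimum of 1 FPKM through the mouse libraries alone, so among the genes tested it had to differ. Read counts were not used here, so no interval is given for the low ferret values.

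In ferret astrocytes the 6 genes ranked Atp1b3, Atp1b1, Slc4a4, Slc12a2, Atp1b2 and Slc8a1 by FPKM, in both libraries. In mouse astrocytes the order was Atp1b2, Atp1b1, Atp1b3, Slc4a4, Slc12a2 and Slc8a1, again in both libraries. The 3 cotransporter and exchanger genes kept their order between the species, and Atp1b2 moved from the top in mouse to the place below Slc12a2 in ferret astrocytes. Neighbours in either order did not overlap between libraries, and among the closest were ferret Slc12a2 (7.41 ± 0.46 FPKM, SD, n = 2) and Atp1b2 (5.73 ± 0.42, SD, n = 2) and mouse Atp1b3 (67.6 ± 0.38, SD, n = 2) and Slc4a4 (61.1 ± 0.86, SD, n = 2).

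The median log2 difference of all genes tested was -0.35 with FPKM as deposited and between -0.01 and 0.05 under the other scalings. Relative to the median of FPKM as deposited, Atp1b2 differed by -5.76, Slc8a1 by -2.27, Slc12a2 by -1.29, Atp1b1 by -1.04, Slc4a4 by -0.89 and Atp1b3 by 1.79 on the log2 scale. The scalings changed the direction of none of the 6 genes. Atp1b3 moved away from 0 under them, to between 1.82 and 1.84, while Atp1b2 stayed between -5.89 and -5.74.

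**Figure D3:**
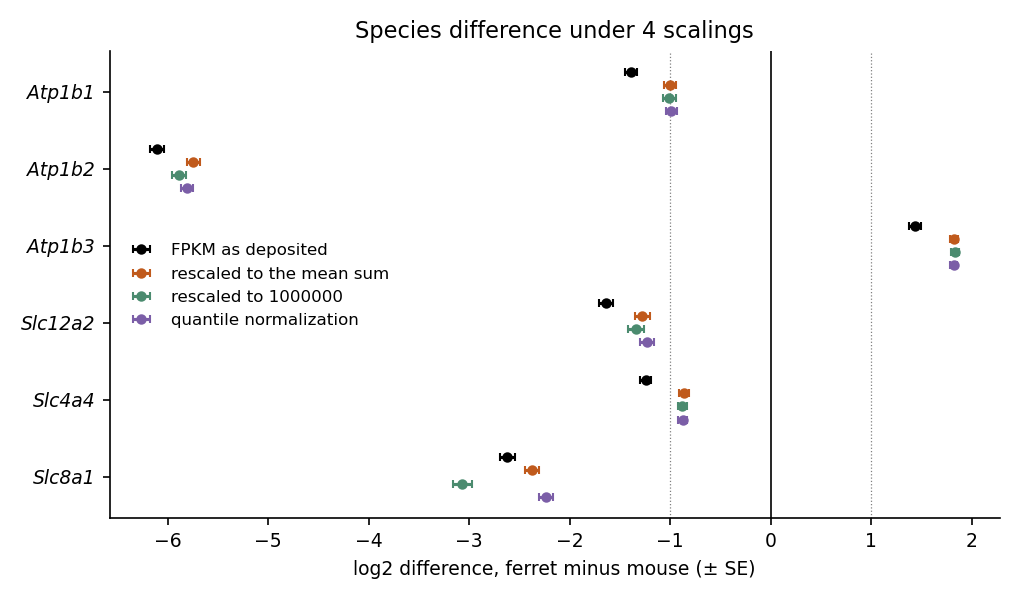
Log2 difference, ferret minus mouse, of the 6 genes with its standard error under 4 scalings of the libraries, with dotted lines at the limits of -1 and 1. Atp1b2, Slc12a2, Slc8a1 and Atp1b3 stay beyond the limits under each scaling, Slc4a4 passes only as deposited (-1.24), and Atp1b1 lies next to -1 under the other 3 scalings.

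The remaining listed beta gene, Atp1b4, was under 0.05 FPKM in the 4 libraries and was not tested. Of 10 regulators of the pump listed, 3 were found in both species and tested, and 1 was called. The others had no ferret symbol match and could not be compared, whatever their level in mouse astrocytes. Nkain2, a gene of a protein that binds the beta 1 subunit, had 2.696 and 1.81 FPKM in ferret and 8.82 and 12.0 FPKM in mouse astrocytes, a log2 difference of -1.81 (SE 0.151, limma adjusted p = 1.46e-06). Fxyd1, which encodes phospholemman and is named here after its values were seen, had 35.2 and 36.3 FPKM in ferret and 68.5 and 71.1 FPKM in mouse astrocytes. Its log2 difference of -0.95 was not called.

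Among all the pathway lists, which held 63 genes beside the 6, 45 genes were in both species and 33 were tested. Of these, 5 were higher in ferret astrocytes, 7 were lower and 21 were not called, and their median log2 difference was -0.32 against -0.35 for all genes tested. Over all genes tested, 13.1% were called higher and 30.1% lower, shares that also go beside the counts of the single lists. Among the called genes, Slc4a10, Slc8a2, Slc8a3 and Atp2b3 passed the minimum through their higher species alone. For 1 list, the 11 carbonic anhydrases, 0 symbols matched between the species. They were listed by their mouse symbols, such as Car2, so the lack of a match says nothing of their level in ferret astrocytes.

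Of the 8 cation-chloride cotransporter genes reported here, 4 were tested, 3 were lower in ferret astrocytes and 0 were higher (median log2 difference -1.45), by limma with Benjamini-Hochberg adjustment. Besides Slc12a2 these were Slc12a4 and Slc12a7, genes of the potassium-chloride cotransporters KCC1 and KCC4, which carry chloride outward. Slc12a7 had 2.24 and 2.50 FPKM in ferret and 16.1 and 16.9 FPKM in mouse astrocytes, a log2 difference of -2.38. Slc12a4 had 19.2 and 19.0 FPKM in ferret and 46.3 and 48.1 FPKM in mouse astrocytes, a log2 difference of -1.26 that was between -0.90 and -0.88 under the other scalings and not called there. Slc12a9 had 7.55 and 7.43 FPKM in ferret and 9.36 and 9.76 FPKM in mouse astrocytes, was not called, and changed direction with the scaling. Slc12a1, Slc12a3, Slc12a5 and Slc12a8 stayed under 1 FPKM in the 4 libraries.

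Of the 8 genes of the WNK and SPAK kinase cascade, which phosphorylates these cotransporters, 1 was higher and 1 lower in ferret astrocytes and 6 were not called, and the median log2 difference was 0.08. Wnk1 was the lower one, with 44.4 and 47.2 FPKM in ferret and 141.8 and 132 FPKM in mouse astrocytes (log2 difference -1.56, adjusted p = 6.56e-09 by limma). Wnk2 was the higher one, with 7.27 and 7.82 FPKM against 1.38 and 1.60 FPKM (log2 difference 1.78, adjusted p = 1.67e-08 by limma). The kinases thus did not move as a group.

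Of the 10 bicarbonate transporter genes, 6 were tested, 2 were lower in ferret astrocytes and 0 were higher (median log2 difference -0.94), by limma with Benjamini-Hochberg adjustment. The other lower gene beside Slc4a4 was Slc4a10, a sodium-driven bicarbonate transporter of neurons and choroid plexus, at 0.29 and 0.18 FPKM in ferret and 7.77 and 8.21 FPKM in mouse astrocytes (log2 difference -2.87). Like Slc8a1, it passed the minimum through the mouse libraries alone. The anion exchanger gene Slc4a2 had 29.6 and 32.6 FPKM in ferret and 36.9 and 37.7 FPKM in mouse astrocytes, was not called, and changed direction with the scaling. The anion exchanger gene Slc4a3, at 8.30 and 9.32 against 18.0 and 18.9 FPKM, the sodium-bicarbonate cotransporter gene Slc4a7, at 3.93 and 3.62 against 6.39 and 6.39 FPKM, and the sodium-driven exchanger gene Slc4a8, at 1.71 and 1.62 against 3.98 and 3.93 FPKM, were not called. With a pseudocount of 0.1, Slc4a3 (-1.06) and Slc4a8 (-1.20) passed the limit, and Slc4a3 also passed without ferret replicate 2 (-1.06) or mouse replicate 1 (-1.02). Slc4a1, Slc4a5, Slc4a9 and Slc4a11 stayed under 1 FPKM in the 4 libraries, and Slc4a1, the band 3 gene of red cells, is listed at 0 in each. As shares of the summed FPKM of the 10 genes, Slc4a4 stood at 36.0% and 34.4% in ferret and at 45.1% and 44.8% in mouse astrocytes, and Slc4a2 at 42.4% and 44.4% against 27.5% and 27.4%. By FPKM, the leading bicarbonate transporter message was thus Slc4a2 in ferret and Slc4a4 in mouse astrocytes. The lead in ferret was small, at 29.6 and 32.6 against 25.2 and 25.2 FPKM. The part of gene model length in this order was not tested. Of the 10 sodium-proton exchanger and partner genes, 8 were tested and 1 was called, the organellar exchanger gene Slc9a7, at 14.7 and 14.1 FPKM in ferret and 5.03 and 4.95 FPKM in mouse astrocytes (log2 difference 1.36, median of the list -0.23).

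The messages of sodium-calcium exchangers and calcium pumps differed between the species gene by gene. Of the 4 sodium-calcium exchanger genes, all tested, 2 were lower and 1 was higher in ferret astrocytes (median log2 difference -0.94). The 3 called genes each passed the minimum of 1 FPKM in their higher species alone, so they had to differ and the count is no support. Slc8a3, the gene of NCX3, had 2.69 and 2.55 FPKM in ferret and 0.31 and 0.25 FPKM in mouse astrocytes, opposite to Slc8a1. Its log2 difference was 1.502 (SE 0.078, limma adjusted p = 4.03e-08), and it passed the minimum through the ferret libraries alone. Slc8a2, the gene of NCX2, had 0.10 and 0.15 FPKM in ferret and 1.33 and 1.45 FPKM in mouse astrocytes (log2 difference -1.09), passed through the mouse libraries alone, and was not called after rescaling to the mean sum (-0.96) or quantile normalization (-0.84). Slc8b1, the gene of the mitochondrial exchanger, had 4.39 and 4.99 FPKM in ferret and 9.005 and 8.82 FPKM in mouse astrocytes and was not called. Slc8a1 over Slc8a3 came to 0.218 and 0.240 in ferret and to 29.1 and 35.1 in mouse astrocytes, a ratio computed after the values were seen.

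The plasma membrane calcium pumps, which export calcium with ATP, had a median log2 difference of 1.96 (3 genes tested of 4), with 2 genes higher and 1 lower in ferret astrocytes. Atp2b4, the gene of PMCA4, had 54.3 and 59.9 FPKM in ferret and 13.7 and 14.2 FPKM in mouse astrocytes, a log2 difference of 1.96 (SE 0.068, limma adjusted p = 2.29e-09). Atp2b3, the gene of PMCA3, had 4.35 and 4.48 FPKM in ferret and 0.016 and 0.017 FPKM in mouse astrocytes, a log2 difference of 2.41, and passed the minimum through the ferret libraries alone. Atp2b1, the gene of the housekeeping PMCA1, had 5.55 and 4.87 FPKM in ferret and 24.5 and 22.6 FPKM in mouse astrocytes, a log2 difference of -1.98 (SE 0.079, limma adjusted p = 6.09e-09). The 4 genes summed to 64.3 and 69.4 FPKM in ferret and to 38.6 and 37.5 FPKM in mouse astrocytes, whereas the 4 exchanger genes summed to 7.76 and 8.31 FPKM in ferret and to 19.7 and 19.1 FPKM in mouse astrocytes. The mitochondrial Slc8b1 made up 56.5% and 60.1% of the exchanger sum in ferret and 45.8% and 46.1% in mouse astrocytes. That sum is therefore not one of plasma membrane exporters alone. Summed message stood higher in ferret astrocytes for the calcium pumps and higher in mouse astrocytes for the exchangers, Slc8b1 included. These are values without a test of their own.

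**Figure D4:**
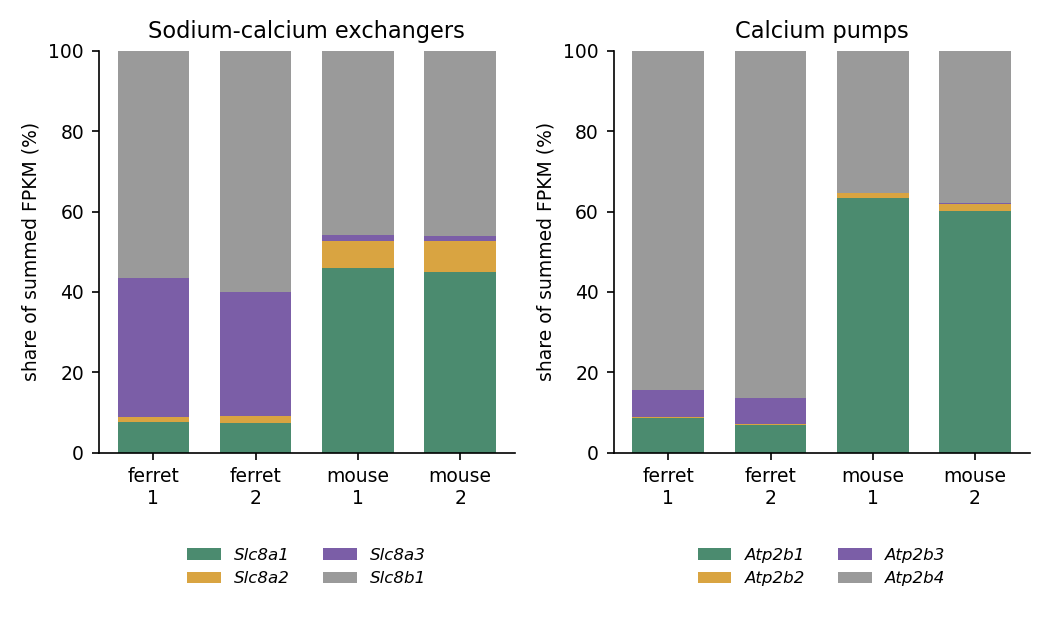
Share of each gene in the summed FPKM of its family, in percent, for the 4 libraries: sodium-calcium exchangers (4 genes) and plasma membrane calcium pumps (4 genes). Slc8a1 takes 7.54% and 7.36% in ferret against 45.9% and 45.1% in mouse, and Atp2b4 takes 84.4% and 86.3% against 35.5% and 38.0%.

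The genes closest in pattern to each of the 6 were taken by the Euclidean distance of log2(FPKM + 1) over the 4 libraries, as a description. Among 10203 other genes, the closest to Atp1b2 was Kcnj10, which encodes the inwardly rectifying potassium channel Kir4.1, at a distance of 1.26, with 2.33 and 3.12 FPKM in ferret and 415 and 444 FPKM in mouse astrocytes. A further search covered the 265 other genes whose symbols begin with SLC or ATP. The closest to Atp1b3 was the RNA helicase gene Ddx3x (distance 0.14), with 176.8 and 176.6 FPKM in ferret and 71.7 and 69.3 FPKM in mouse astrocytes, and in the SLC and ATP genes Atp6v1d (0.61). The closest to Atp1b1 were Ddah1 (0.067) and, in the SLC and ATP genes, the glutamate transporter gene Slc1a3 (0.73). Slc12a2 was closest to Slc49a4 (0.14) in both searches, Slc4a4 to Elovl1 (0.037) and Atp6v1h (0.16), and Slc8a1 to Bmper (0.051) and Slc15a3 (0.38). Atp1b2 had the largest distance to its closest gene among the 6.

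**Figure D5:**
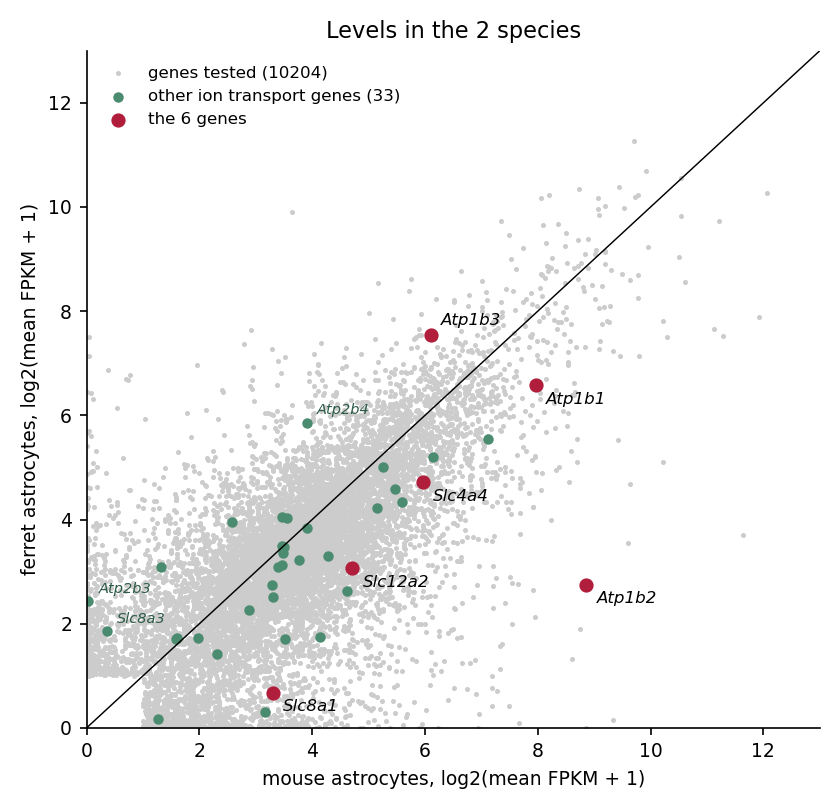
Level in ferret against level in mouse astrocytes, as log2(mean FPKM + 1), for the 10204 genes tested (grey), the 6 genes (red) and 33 other ion transport genes of the lists (green), with a line at equal levels. Atp1b2 lies far below the line at the right, and Atp1b3 and Atp2b4 lie above it.

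The libraries are bulk RNA of whole cultures, in which fewer cells of a type and less RNA per cell cannot be told apart. Over all genes tested, 13.1% were called higher and 30.1% lower in ferret astrocytes, the shares to set beside each marker count below. Most astrocyte markers were well measured in both species, and of 11 tested 1 was higher and 7 were lower in ferret astrocytes. The summed FPKM of these markers was 3576 and 3674 in ferret and 3260 and 3532 in mouse astrocytes, led by Aldoc (1619 and 1700 FPKM) in ferret and Gfap (1429 and 1546 FPKM) in mouse. Aldoc and Gfap made up most of each sum, so the close sums say little of the other markers. Aqp4, among the 7 lower, had 24.8 and 21.8 FPKM in ferret and 201.5 and 209.9 FPKM in mouse astrocytes. S100b, the 1 higher, had 247.4 and 243.8 FPKM in ferret and 57.3 and 63.1 FPKM in mouse astrocytes. Of the astrocyte markers, the glutamate transporter gene Slc1a2 was at 0.13 and 0.18 FPKM in ferret against 47.1 and 51.8 FPKM in mouse astrocytes, and the connexin gene Gjb6 at 0 and 0.16 against 1.79 and 2.00 FPKM. Both passed the minimum of 1 FPKM through the mouse libraries alone, so their direction was fixed by the filter. Markers of other cells moved with the species as well. The summed FPKM of the 10 microglial markers reported here was 9.44 and 8.72 in ferret and 572 and 562 in mouse astrocytes, with all 10 lower and Cx3cr1 listed at 0 in both ferret libraries. Among these 10, Tmem119 was highest in ferret (4.01 and 3.67 FPKM) and Tyrobp in mouse astrocytes (148.8 and 142 FPKM). Aif1, Cx3cr1, P2ry12, C1qb, Csf1r, Itgam and Tyrobp passed the minimum through the mouse libraries alone, so their direction was fixed by the filter. The sum of 10 meningeal fibroblast markers was 126.7 and 112 in ferret and 1595 and 1570 in mouse astrocytes, with all 10 lower, led by Col1a2 in ferret (84.6 and 74.6 FPKM) and Serpinf1 in mouse (629.8 and 653 FPKM). Lum, Serpinf1, Pcolce, Fbln1 and Col6a3 likewise passed through the mouse libraries alone.

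The sum of 11 oligodendrocyte lineage markers found in both species was 170.8 and 189.5 FPKM in ferret and 70.3 and 70.2 FPKM in mouse astrocytes, led by Cnp in both, with 3 of 9 tested higher and 0 lower. Sox10, among the higher ones, passed the minimum through the ferret libraries alone, so its direction was fixed by the filter. Olig1, also listed, had no ferret symbol match and stood at 107.4 and 116.9 FPKM in mouse astrocytes, above Cnp. The sums and the lead of Cnp therefore hold only for the matched markers. For neurons, the 9 markers found in both species summed to 31.1 and 32.7 FPKM in ferret and to 32.6 and 33.7 FPKM in mouse astrocytes, led by Map2 in both, with 3 of 4 tested higher, and Rbfox3 was under 0.1 FPKM in the 4 libraries. Nefl and Gad1, among the higher ones, passed the minimum through the ferret libraries alone, so their direction was fixed by the filter. Stmn2, also listed, had no ferret symbol match and stood at 123.6 and 127.4 FPKM in mouse astrocytes, above Map2. The close sums and the lead of Map2 therefore hold only for the matched markers. Choroid plexus and ependymal markers summed to 24.7 and 23.7 FPKM in ferret and to 46.9 and 49.5 FPKM in mouse astrocytes, nearly all of it Foxj1, with 1 of 3 tested lower, and Ttr, the defining marker of choroid plexus, was under 0.1 FPKM in the 4 libraries. The lower one, Folr1, passed the minimum through the mouse libraries alone. Rbfox3 and Ttr were thus near 0 in both species, whereas the neuronal markers Syt1 (5.11 and 4.94 FPKM in ferret, 1.12 and 1.25 FPKM in mouse) and Nefl (4.42 and 5.68 against 0.14 and 0.092 FPKM) were not. The 8 endothelial markers summed to 1.59 and 2.40 FPKM in ferret, where Egfl7 led, and to 27.6 and 27.7 FPKM in mouse astrocytes, where Cdh5 led, with 2 of 3 tested lower, and Pecam1 and Cldn5 were under 0.1 FPKM in the 4 libraries. The lower ones, Cdh5 and Tek, passed the minimum through the mouse libraries alone, so their direction was fixed by the filter. The part of these other cells in the values of Atp1b2, Atp1b3 and the other genes was not tested.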

How the data were processed

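RNA of cultured ferret and mouse astrocytes was sequenced from stranded, polyA-selected libraries, 2 per species. Per the labels and the study's methods, the authors aligned reads with STAR 2.7.0f to the genome of each species (GRCm38 for the mouse) and deposited FPKM per gene from Cufflinks 2.2.1, with the Ensembl annotation of each species. Gene models of unequal length or completeness therefore enter comparisons between species. The FPKM analysed hold no read counts. The study states that its supplement lists read counts and gene lengths, but neither was used here. The depth behind a value was therefore not examined and no counting interval is given. Over shared symbols, FPKM added up to 227391 and 236543 for ferret and 300465 and 308122 for mouse.

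Symbols were matched in upper case, and the row of highest mean was taken where a symbol had several. FPKM were set to log2(FPKM + 1), which understates differences of low genes, and species were compared with limma 3.58.1 in R 4.3.3 (empirical Bayes with trend), with Benjamini-Hochberg adjustment over the 10204 genes whose mean reached 1 FPKM in either species. On simulated data for 10204 genes with 200 changed by a log2 value of 1.5, the fit called 98.5% of the changed and 3 of the unchanged genes. The simulated noise was normal and drawn from the spread between duplicates. The run thus checks only the working of the fit and gives no error rate for the calls reported here. Shares and ratios within a library were compared by exact permutation.

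The genes, the 9 pathway lists, the 7 cell type lists and the tests were chosen with earlier results of these data known. Named were the 6 genes, each measured gene of the beta, cation-chloride, bicarbonate and sodium-calcium lists, the called genes of the other pathway lists (at most 4 a list), the highest marker of each cell type list in each species, and the closest gene to each of the 6. Some genes that these rules cover are not reported here, and counts, sums and medians of the lists leave them out. Other cell markers, Fxyd1, Slc1a2 and Nme7 were named after their values were seen. Mouse coordinates and sequences are of GENCODE M21 on GRCm38, an annotation release other than that of the authors, and ferret coordinates were not used here. Alternatives were a pseudocount of 0.1, other filters on low values, 3 other scalings, a replicate block, summed rows, no trend, and each library left out.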

Additional observations from a re-analysis of the deposited data

How the results depend on the processing

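The 6 genes kept the direction of their species difference under every alternative run, and the largest adjusted p over them was 0.000456 by limma, except that Slc8a1 had no value where both species had to reach the minimum of 1 FPKM. Calls of 2 genes depended on the scaling: Atp1b1 was at -0.99 after quantile normalization, and Slc4a4 at -0.88 with FPKM rescaled to a sum of 1000000, -0.86 rescaled to the average sum and -0.87 after quantile normalization, each under the limit of 1. These scalings raise ferret values against mouse values for most genes, as the median of all genes shows. The sum of 1000000 also enlarges all FPKM, so the pseudocount of 1 weighs less there. Slc8a1, a low gene, moved the other way under it, from -2.62 to -3.07. As Slc8a1 passed the minimum through the mouse libraries alone, its kept direction is no support. With each library left out in turn, log2 differences ranged from -1.45 to -1.33 for Atp1b1, -6.17 to -6.04 for Atp1b2, 1.40 to 1.47 for Atp1b3, -1.69 to -1.58 for Slc12a2, -1.26 to -1.23 for Slc4a4 and -2.65 to -2.59 for Slc8a1, the lone library of a species being assumed to vary like the other group. The share of Atp1b1 ranged from -0.23 to 2.55 percentage points, ferret minus mouse, and changed sign without ferret replicate 1. A further 2 genes that were not called changed direction under the scalings: Slc12a9 was at 0.038, 0.035 and 0.11 (1000000, mean sum, quantile), and Slc4a2 at 0.13, 0.12 and 0.13. Genes higher in ferret rose from 1336 to 2197 with the sum of 1000000 and 2080 after quantile normalization, and higher calls were 30.3% of all calls as deposited, 46.4% and 46.9% after the rescalings and 50.0% after quantile normalization. Cell type markers called higher went from 7 to 4, and those called lower from 30 to 13, where a mean FPKM of at least 1 was required in both species, which tests fewer genes, and 11 were higher with the sum of 1000000. The replicate number as a block gave the same calls for the 6 genes (Atp1b2 log2 difference -6.11) and 1342 higher and 3072 lower genes. The deviations of same-numbered libraries correlated at 0.0099 over genes. With so few libraries this value cannot show whether same-numbered libraries shared a preparation, and the sample titles give only a number.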
